A study of Rattus norvegicus with 8 samples.

Results

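Triglyceride and cholesteryl ester storage was described here through 10 genes of the liver: the esterifying enzymes Soat1, Soat2, Dgat1, Dgat2 and Gpam, the lipid droplet protein Plin2, the droplet lipase Pnpla2, the lipoprotein loading factor Mttp, the plasma lipase Lipc and the lipase inhibitor Angptl4. These genes were chosen by their place in lipid storage and with their log2 differences between the groups on these 8 arrays already known, so those differences are given as a description. Their probe sets were found by the gene symbol or gene identifier that the array files give for each probe set, with Plin2 listed under its older symbol Adfp, and all 10 of 10 were measured, by 11 of the 26208 probe sets. Pnpla2 had 2 probe sets and every other gene had 1. Livers of 4 male F344/N rats that received thioacetamide for 28 days were compared with livers of 4 male F344/N rats without treatment, kept on basal diet and tap water. Gavage is the labelled route in either group, and the sources used here give no dose and no age. Whole liver RNA, 1 array per rat, was labelled with Cy3 and hybridised to NimbleGen expression arrays, and the deposited values are log2 levels after RMA, so that a difference of 1 is a 2-fold change. Thioacetamide is a liver toxicant that liver enzymes convert to its reactive form.

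Surplus fatty acids and cholesterol are kept in the liver as neutral esters. Glycerol phosphate is acylated stepwise to triglyceride, with Gpam at the first step and Dgat1 or Dgat2 at the last, and cholesterol is esterified by Soat1 or Soat2. The esters are stored in droplets coated by perilipins such as Plin2, are released by lipases of which Pnpla2 starts triglyceride breakdown, or are loaded by Mttp onto apolipoprotein B and secreted, after which lipases in plasma and on vessel walls hydrolyse them.

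The arrays had median log2 levels between 7.34 and 7.40 in thioacetamide rats and between 7.27 and 7.38 in control rats. As a background level, the 95th percentile of 1227 probe sets of olfactory receptors, genes of the nose, ranged from 6.54 to 6.95 on thioacetamide arrays and from 6.95 to 7.94 on control arrays. Control replicate 3 stood apart, with the highest background level (7.94) and the lowest mean correlation with the rest of its group (0.935). That correlation was 0.971 to 0.982 on thioacetamide arrays and 0.954 to 0.959 on the remaining controls. The 6 hepatocyte markers (Alb, Ttr, Apoa1, Serpina1, Tat and Asgr1) were above background on all 8 arrays. Alb averaged 15.70 ± 0.11 in thioacetamide rats and 15.73 ± 0.07 in control rats (SD, n = 4 each). Arrays have no read depth, and precision here depends on how many arrays there are and on how far rats of a group vary. Of the 10 genes, Mttp was measured by 2 probes, and every other probe set held 3. In whole liver RNA, a lower share of a cell type and less RNA per cell cannot be told apart, which holds for every gene below.

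Soat1 was higher in thioacetamide livers by a wide margin and Lipc was lower, and these were the genes of the 10 that passed the test, with 1 rise and 1 fall. The pathway lists too were made with results of this comparison known, and no test below is independent support. The test was limma on the log2 values in which p-values were adjusted (Benjamini-Hochberg) across the 26208 probe sets and called under 0.05, and 14.6% of all probe sets were called. With 1 probe set per gene, the one with the highest mean, 14.9% of 24144 genes were called, 9.67% higher and 5.24% lower, and 23.7% of the 9478 genes above background on every array. The groups did not overlap for 6 of the 10 genes, 4 of them higher in thioacetamide livers (Soat1, Soat2, Plin2 and Pnpla2) and 2 lower (Dgat2 and Lipc), beside 21.9% of all genes, 14.2% higher and 7.68% lower. That share was not counted for the genes above background on every array. The differences, thioacetamide minus control, were positive for 7 genes and negative for 3, with a median of 0.43 against -0.04 over all genes. Many of all genes were under background, whereas of the 10 only Soat1 in control livers was. Over probe sets above background on at least 4 arrays the median was 0.14. The 10 genes were chosen with these differences known. A variance model with an intensity trend and robust estimation called 6 of the 10, adding Plin2, Pnpla2 and Mttp as higher and Dgat2 as lower, beside 16.9% of all genes. Here too the share among genes above background on every array was not counted.

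**Figure D1:**
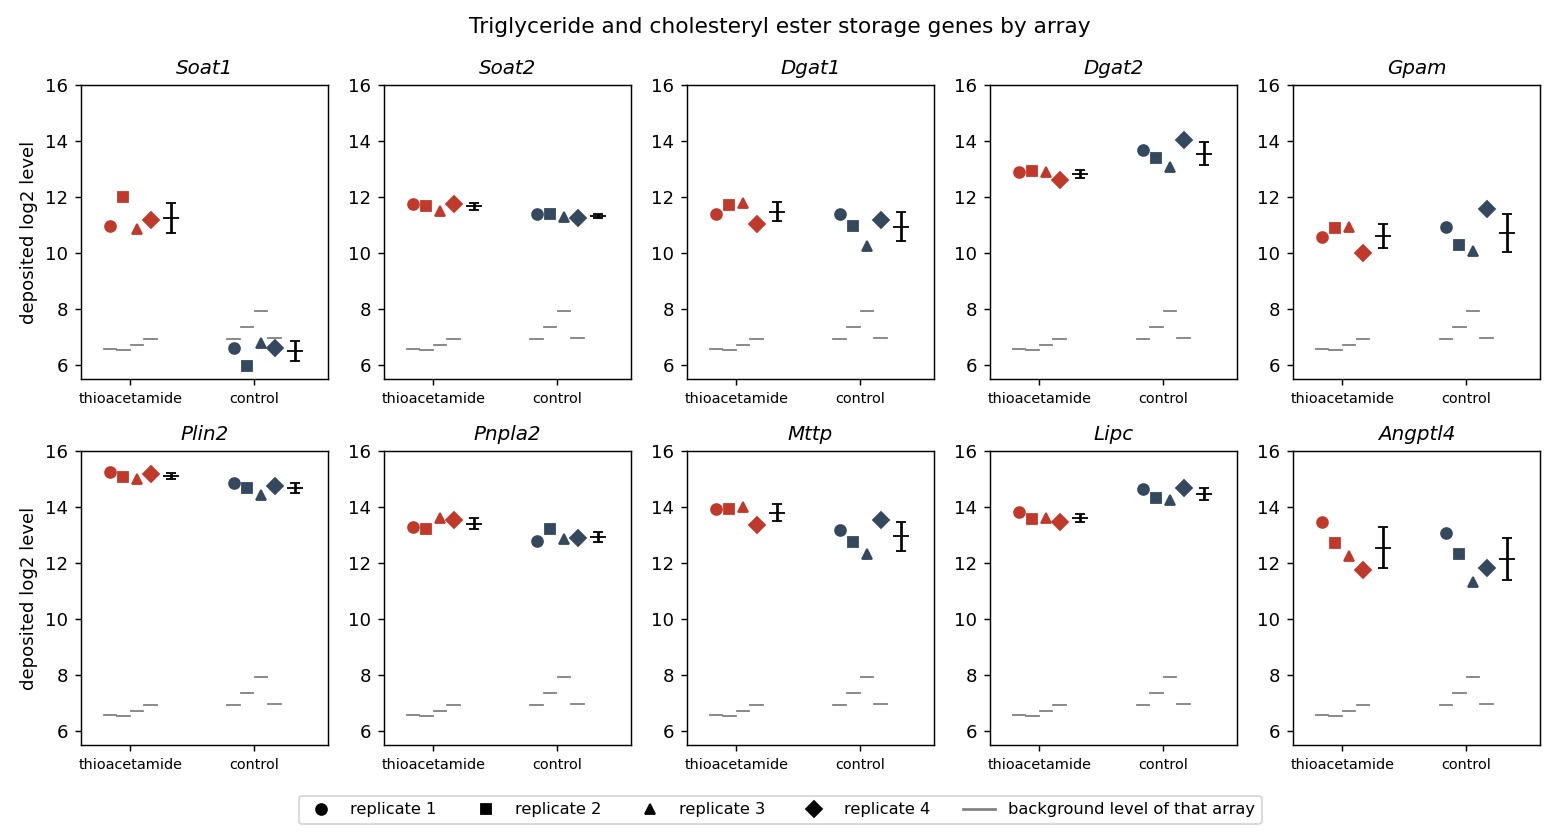
Deposited log2 level (vertical axis) of the 10 genes on each of the 8 arrays, thioacetamide in red on the left and control in dark grey on the right of each panel, with symbols for the replicate number, black bars for the mean ± SD and short grey lines for the background level of each array. Soat1 lies between 10.86 and 12.01 in thioacetamide livers and between 5.99 and 6.81, under background, in control livers, while the other 9 genes are above background on all 8 arrays.

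**Figure D2:**
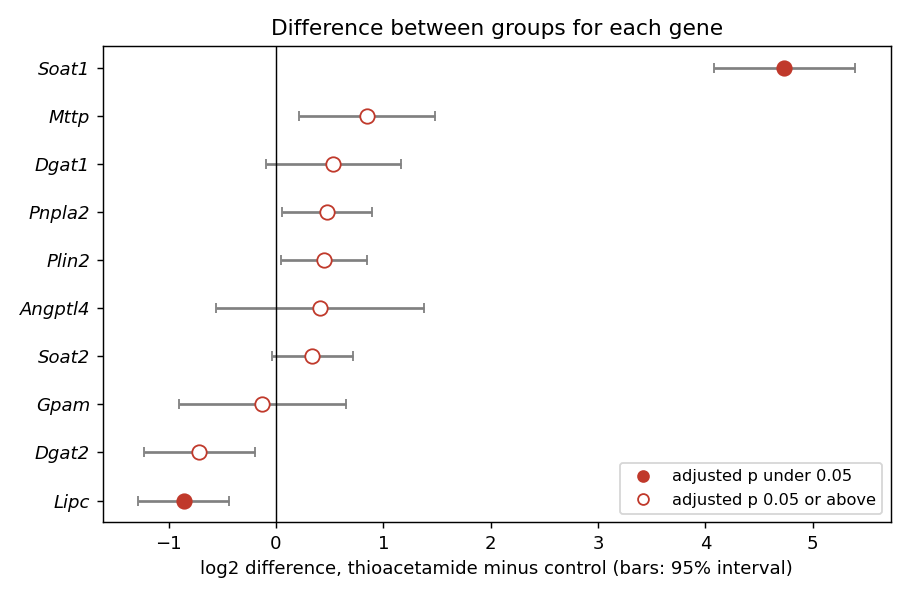
Log2 difference, thioacetamide minus control, of each gene (points) with its 95% interval (bars), filled where the adjusted p was under 0.05. Soat1 stands at 4.74 and Lipc at -0.86, and the intervals of Soat2, Dgat1, Gpam and Angptl4 include 0.

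To show the sequence in front of the gene that rose and the gene that fell, the 250 bases before each start are printed from RefSeq (build GRCr8), on the gene's strand. Capitals mark matches, on either strand, to 8 short motifs: AGGTCA (the core hexamer of nuclear receptor elements), AGGTCA repeated with 1 base between, CACGTG (E-box), TCACNCCAC (sterol regulatory element core), TGACNNNGC (antioxidant response element core), GGGCGG (GC box), CCAAT and TATAAA.
Soat1, chr13:71147673-71147922, minus strand: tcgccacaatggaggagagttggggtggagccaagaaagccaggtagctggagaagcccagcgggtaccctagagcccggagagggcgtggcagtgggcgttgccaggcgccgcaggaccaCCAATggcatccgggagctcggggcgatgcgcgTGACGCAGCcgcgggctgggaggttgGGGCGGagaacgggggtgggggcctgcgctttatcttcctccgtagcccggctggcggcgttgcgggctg
Lipc, chr8:80516286-80516535, minus strand: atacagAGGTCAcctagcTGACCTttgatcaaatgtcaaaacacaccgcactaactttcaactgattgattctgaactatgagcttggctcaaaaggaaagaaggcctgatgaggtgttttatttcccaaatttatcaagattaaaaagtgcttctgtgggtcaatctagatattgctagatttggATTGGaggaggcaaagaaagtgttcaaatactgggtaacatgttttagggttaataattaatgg
The Soat1 stretch is 69.6% G or C, higher than in 91.3% of the 33469 RefSeq promoters, and holds 23 CG pairs. The Lipc stretch is 37.2% G or C, higher than in 8.6% of them, with 1 CG pair, and the median over all promoters is 51.2% with 5 CG pairs. In front of Soat1 stand CCAAT, 1 TGACNNNGC match and 1 GC box, which occur in 34.0%, 10.1% and 30.5% of all promoters of this length. In front of Lipc stand 1 CCAAT match, on the reverse strand, and 2 AGGTCA matches in opposite orientation with 6 bases between them, a hexamer found in 14.1% of all promoters. The sterol element core and the AGGTCA repeat, found in 0.974% and 0.0508% of promoters, were in neither stretch. These matches are letters only and say nothing of binding. RefSeq windows were matched for 6 of the 10 genes (Soat1, Gpam, Plin2, Pnpla2, Lipc and Angptl4).

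Soat1 encodes the sterol acyltransferase found in most tissues, macrophages among them, and it joins long-chain fatty acids to cholesterol in the endoplasmic reticulum. Its log2 level was 10.95, 12.01, 10.86 and 11.17 in thioacetamide livers (replicates 1 to 4), against 6.62, 5.99, 6.81 and 6.63 in control livers. All 4 control values lay under the background of their arrays and all 4 thioacetamide values lay above it, with a gap of 4.05 between the lowest treated and the highest control value. The measured difference was 4.74 ± 0.29 (SE, limma, adjusted p = 1.68e-05). Since control livers gave only a bound, Soat1 was at least 15.4-fold higher, the treated mean of 11.25 being set against a control mean of 7.31 in which each value was raised to its array's background. The difference lay between 4.48 and 4.87 when any 1 array was left out.

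Soat2 encodes the sterol acyltransferase of hepatocytes and intestinal cells in rodents, which supplies cholesteryl esters for lipoproteins. It was 11.77, 11.67, 11.49 and 11.77 in thioacetamide livers, against 11.41, 11.40, 11.29 and 11.26 in control livers. The groups did not overlap, but the gap between them was only 0.09. The difference was 0.34 ± 0.17 (SE, limma, adjusted p = 0.218), a 1.26-fold level with a 95% interval from -0.04 to 0.72 on the log2 scale. The SD of Soat2 was 0.13 in thioacetamide livers and 0.08 in control livers, the smallest of the 10 genes in control livers. The pair of enzymes with the same reaction had differences of 4.74 (95% interval 4.08 to 5.39) for Soat1 and 0.34 for Soat2, and the difference between these was not tested. Levels of different probe sets are not on a common scale, so the level of Soat1 was not set against that of Soat2.

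Of Dgat2, Dgat1 and Gpam, the triglyceride synthesis enzymes among the 10 genes, none passed the test, and Dgat1 and Dgat2 had differences of opposite sign. Dgat2, a diacylglycerol acyltransferase of the endoplasmic reticulum and lipid droplets, was 12.89, 12.93, 12.91 and 12.62 in thioacetamide livers, against 13.68, 13.41, 13.08 and 14.04 in control livers. Every treated value was under every control value, and the SD was 0.15 in treated and 0.41 in control livers. The difference was -0.72 ± 0.23 (SE, limma, adjusted p = 0.0672). It passed without control replicate 3, the lowest control (-0.87, adjusted p = 0.0218), and under cyclic loess scaling (-0.75, adjusted p = 0.0478).

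Dgat1, which catalyses the same last step but belongs to the protein family of the sterol acyltransferases, was 11.38, 11.71, 11.80 and 11.05 in thioacetamide livers, against 11.40, 10.99, 10.24 and 11.17 in control livers. The groups overlapped, since thioacetamide replicate 4 was under 2 control values and replicate 1 under 1. The difference was 0.53 ± 0.28 (SE, limma, adjusted p = 0.241, 95% interval -0.10 to 1.17), and it was 0.30 without control replicate 3, whose value was the lowest of the 8. Gpam, the mitochondrial acyltransferase of the first step, was 10.59, 10.90, 10.92 and 9.99 in thioacetamide livers, against 10.95, 10.29, 10.09 and 11.57 in control livers. The control values enclosed all but 1 of the treated values, and the difference was -0.13 ± 0.35 (SE, limma, adjusted p = 0.849, 95% interval -0.90 to 0.65). Its sign turned when replicate 4 was left out of the control group (0.16) or of the thioacetamide group (0.08).

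The droplet coat gene and the droplet lipase gene both had small positive differences that did not pass. Plin2, the perilipin of liver lipid droplets, was 15.25, 15.06, 15.01 and 15.17 in thioacetamide livers, against 14.85, 14.69, 14.41 and 14.73 in control livers. All treated values were above all control values, by 0.16 at the nearest. The difference was 0.45 ± 0.18 (SE, limma, adjusted p = 0.129), or 1.36-fold, and its 95% interval of 0.05 to 0.85 lay above 0 before adjustment over all probe sets. By level Plin2 ranked at percentile 99.7 of the probe sets in thioacetamide livers and 99.1 in control livers. Whether signal so near the top still followed RNA in proportion was not tested.

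Pnpla2, adipose triglyceride lipase, takes the first fatty acid from stored triglyceride. By the probe set with the higher mean it was 13.30, 13.21, 13.60 and 13.52 in thioacetamide livers, against 12.79, 13.20, 12.85 and 12.89 in control livers. These groups were apart by no more than 0.01, control replicate 2 being the nearest control. The second probe set was 13.29, 13.07, 13.67 and 13.48 in thioacetamide livers, against 12.81, 13.25, 12.86 and 12.80 in control livers, and there the groups overlapped. The differences were 0.48 ± 0.19 (SE, limma, adjusted p = 0.125) and 0.45 ± 0.21 (adjusted p = 0.18), so both probe sets gave like differences and neither passed.

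The gene that loads lipid for export and the gene of the liver's own plasma lipase had differences of opposite sign. Mttp, the microsomal protein that transfers triglyceride and cholesteryl ester to nascent lipoproteins, was 13.91, 13.94, 13.98 and 13.34 in thioacetamide livers, against 13.20, 12.76, 12.31 and 13.53 in control livers. In 3 of 4 treated livers Mttp was above all controls, and thioacetamide replicate 4 was under control replicate 4. The difference was 0.85 ± 0.28 (SE, limma, adjusted p = 0.0768), or 1.80-fold, and it passed without control replicate 4 (1.04, adjusted p = 0.0353).

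Lipc, hepatic lipase, is made by hepatocytes and hydrolyses triglyceride and phospholipid of lipoprotein remnants and high density lipoprotein. It was 13.82, 13.56, 13.60 and 13.46 in thioacetamide livers, against 14.63, 14.33, 14.24 and 14.67 in control livers. The groups did not overlap, with a gap of 0.42, and the SDs were 0.15 and 0.22. The difference was -0.86 ± 0.19 (SE, limma, adjusted p = 0.0141), a level 1.81-fold lower than in control livers, and it lay between -0.93 and -0.79 with any 1 array left out (adjusted p = 0.0109 to 0.0494). Of the 6 hepatocyte markers, Asgr1 fell too (-1.04 ± 0.20, limma adjusted p = 0.00801), the other 5 did not pass, and the median difference of the 6 was -0.08. Alb, Ttr, Apoa1 and Serpina1 averaged 15.33 to 15.73 in control livers, above Plin2, so the limit given for Plin2 holds for them. Tat, at a lower level, differed by -0.39 (limma adjusted p = 0.338). The summed log2 level of the 6 markers was 89.48 to 90.73 in thioacetamide livers and 90.97 to 91.88 in control livers. Its part in the difference of Lipc was not tested.

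Angptl4, a secreted inhibitor of lipoprotein lipase that fasting and fatty acids raise in the liver, varied most between rats of a group. It was 13.46, 12.71, 12.26 and 11.75 in thioacetamide livers, against 13.08, 12.33, 11.32 and 11.81 in control livers. The groups overlapped over most of their ranges, with SDs of 0.73 and 0.75. The difference was 0.41 ± 0.43 (SE, limma, adjusted p = 0.574), with a 95% interval from -0.56 to 1.38 that spans lower and more than 2-fold higher levels.

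The 10 genes did not vary alone from rat to rat. Thioacetamide replicate 4 held the lowest treated value of 6 genes (Dgat1, Dgat2, Gpam, Mttp, Lipc and Angptl4) and the highest of 0. Control replicate 3 held the lowest control value of 7 genes, the same 6 and Plin2, and the highest of 1, Soat1. Over the 10 genes, the median deviation from the group mean was -0.18 in thioacetamide replicate 4 and -0.37 in control replicate 3, against 0.03 to 0.12 in the other treated rats and -0.06 to 0.17 in the other controls. Soat1, Soat2 and Pnpla2 did not share this order. The median SD of the 10 genes was 0.24 in thioacetamide rats and 0.38 in control rats, beside 0.25 and 0.31 over all probe sets above background on every array. A further fit left out thioacetamide replicate 4 and control replicates 2 and 3, a set chosen with earlier results of these data known. Control replicate 2 had a mean correlation of 0.959 with its group, like control replicate 1, and a background level of 7.36. In that fit Soat1 (4.65, limma adjusted p = 0.000174), Lipc (-0.99, adjusted p = 0.0165) and Dgat2 (-0.95, adjusted p = 0.0217) passed.

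**Figure D3:**
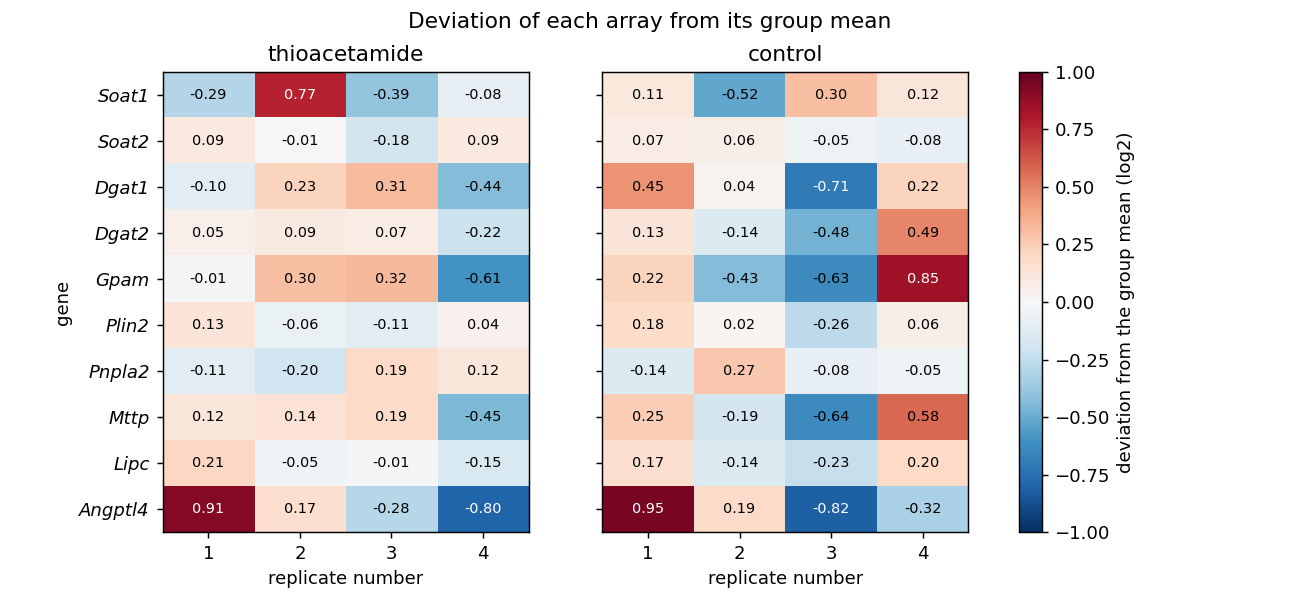
Deviation of each array from its group mean in log2 units, for the 10 genes (rows) in the 4 thioacetamide livers (left) and the 4 control livers (right), with red above and blue below the mean. The low values gather in thioacetamide replicate 4, the lowest in 6 of 10 genes, and control replicate 3, the lowest in 7 of 10.

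Likeness of pattern was taken as Pearson's r of log2 values over the 8 arrays, among 11396 probe sets of named genes above background throughout at least 1 group, and is a description, since many genes share the split between the groups. Nearest to Soat1 were Apex1 (0.997), Cd2ap (0.996) and Nop58 (0.996), and nearest to Lipc were Tkfc (0.995), Agxt (0.994) and Dmgdh (0.992). With each group's mean removed, so that only variation between rats of a group counts, the nearest to Soat1 were Ust5r (0.961), Col6a3 (0.947) and Rbms3 (0.943), and those to Lipc were Atg9a (0.988), Atf6b (0.985) and Tbc1d2 (0.979). The control values of Soat1 were all under background, so its variation among control livers is that of values near the floor. How often r this high arises by chance among 11396 probe sets on 8 arrays was not tested.

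Other genes of the same pathways changed in both directions. In 8 lists that hold 101 measured genes besides the 10, 14 rose and 17 fell by the same test (30.7%), with a median difference of -0.24. Beside this, 14.9% of all genes were called (9.67% higher, 5.24% lower), and 23.7% of genes above background on every array. These shares stand beside every list and marker count below that rests on the adjusted p. The share of all genes under an unadjusted p of 0.05 was not counted, so counts by the unadjusted p below have no share to be read against. The count of 31 was 19 without thioacetamide replicate 1 and 20 without thioacetamide replicate 2. Of 19 glycerolipid synthesis genes 3 rose (Gpat3, Agpat1 and Acsl3) and 2 fell (Agpat2 and Acsl1). Gpat3, an acyltransferase of the endoplasmic reticulum that does the same first step as Gpam, was at least 4.00-fold higher, with all control values under background (means 9.31 ± 0.64 in thioacetamide and 5.53 ± 0.39 in control livers, SD, n = 4 each, limma adjusted p = 0.000117). Agpat1, of the second acylation, rose by 1.63 ± 0.27 (SE, limma adjusted p = 0.00325). Both rises passed with any 1 array left out. The other 3 calls did not: the list count was 2 without any one of thioacetamide replicates 1, 2 and 3, and 3 without control replicate 2, Agpat2 also lost its call without control replicate 1 (adjusted p = 0.0503), and Acsl1 lost it without each of control replicates 1 and 4 and thioacetamide replicate 4 (adjusted p = 0.0981, 0.078 and 0.083).

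Among 13 droplet coat and formation genes 2 rose and 4 fell. Cidea, a droplet protein that promotes droplet growth, was 12.37, 11.58, 11.96 and 12.43 in thioacetamide livers, against 7.97, 10.28, 10.52 and 9.92 in control livers, a difference of 2.41 ± 0.50 (SE, limma adjusted p = 0.0105) that passed with any 1 array left out. Plin3, a perilipin of small droplets, differed by 1.85 ± 0.47 (adjusted p = 0.0277) and lost its call without control replicate 2 or any one thioacetamide replicate. The falls were G0s2, Bscl2, Cidec and Rab18, of which Bscl2, Cidec and Rab18 are named because they make up the count. G0s2, the inhibitor of Pnpla2, differed by -1.18 ± 0.34 (adjusted p = 0.0438) and kept its call only without thioacetamide replicate 4, the array on which it was within the control range, among the 8 fits with 1 array left out. The list count of 6 was 1 without thioacetamide replicate 2, 2 when control replicate 2 or one of thioacetamide replicates 1 and 3 was left out, and 3 in the fits that left out control replicate 1, control replicate 4 or the fourth treated rat.

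Of 11 genes of lipolysis and ester hydrolysis, Abhd5 rose and Ces1d and Aadac fell. Abhd5, the activator of Pnpla2, was 11.81, 12.07, 12.01 and 11.75 in thioacetamide livers, against 11.10, 10.43, 10.31 and 11.12 in control livers, with no overlap and a difference of 1.17 ± 0.24 (SE, limma adjusted p = 0.00965). Ces1d, a carboxylesterase of the hepatocyte endoplasmic reticulum, fell by 3.15 ± 0.37 (adjusted p = 0.000541) and Aadac, arylacetamide deacetylase, by 1.52 ± 0.19 (adjusted p = 0.000802). Carboxylesterases have near-identical relatives, and signal shared between them cannot be separated.

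In the lipoprotein assembly list, which is the setting of Mttp, Sort1 (1.79 ± 0.31, SE, limma adjusted p = 0.00442), a sorting receptor, rose and Apoa4 (-1.62 ± 0.18, adjusted p = 0.000416) fell, and the other 8 of 10, Apob among them, did not pass. Apob averaged 15.26 in control livers, above Plin2, so the limit given for Plin2 holds for Apob. In the plasma lipase list of 14, which is the setting of Lipc and Angptl4, 1 gene rose and 2 fell. Lpl, the lipase that Angptl4 inhibits, rose by 2.70 ± 0.30 (adjusted p = 0.000419), with 2 of 4 control arrays above background. Lrp1, a remnant receptor, fell by 1.55 ± 0.32 (adjusted p = 0.00971), and 4 of this list fell without control replicate 3. Of 11 cholesterol handling genes 3 rose and none fell by limma, 4 being higher and 0 lower when an unadjusted p of 0.05 was the limit. Among the rises were the sterol exporters Abcg8 (1.71 ± 0.43, adjusted p = 0.0246) and Abcg5 (1.55 ± 0.36, adjusted p = 0.0183), both of which lost the call without thioacetamide replicate 1, as Abcg8 did without control replicate 1 and under cyclic loess.

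Of 9 fatty acid uptake and binding genes, Fabp4 (2.33 ± 0.31, SE, limma adjusted p = 0.000956) and Cd36 (1.39 ± 0.38, adjusted p = 0.0346) rose and Slc27a5 (-1.67 ± 0.24, adjusted p = 0.00175) fell, and Cd36 kept its call only without replicate 4 of either group among the fits with 1 array left out. Of 14 lipid regulators 1 rose and 5 fell. Pparg, a nuclear receptor that drives droplet genes in fat cells, was at least 2.70-fold higher, with controls under background on all arrays (limma adjusted p = 0.00038). Srebf1, the regulator of fatty acid and glycerolipid synthesis, fell by 2.33 ± 0.47 (adjusted p = 0.00962) and Mlxipl, its counterpart for carbohydrate, by 1.85 ± 0.22 (adjusted p = 0.000565). The 5 falls, which also hold Ppara, Ppargc1b and Rxra (named because they make up the count), were 3 without thioacetamide replicate 1 and 3 without thioacetamide replicate 2.

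**Figure D4:**
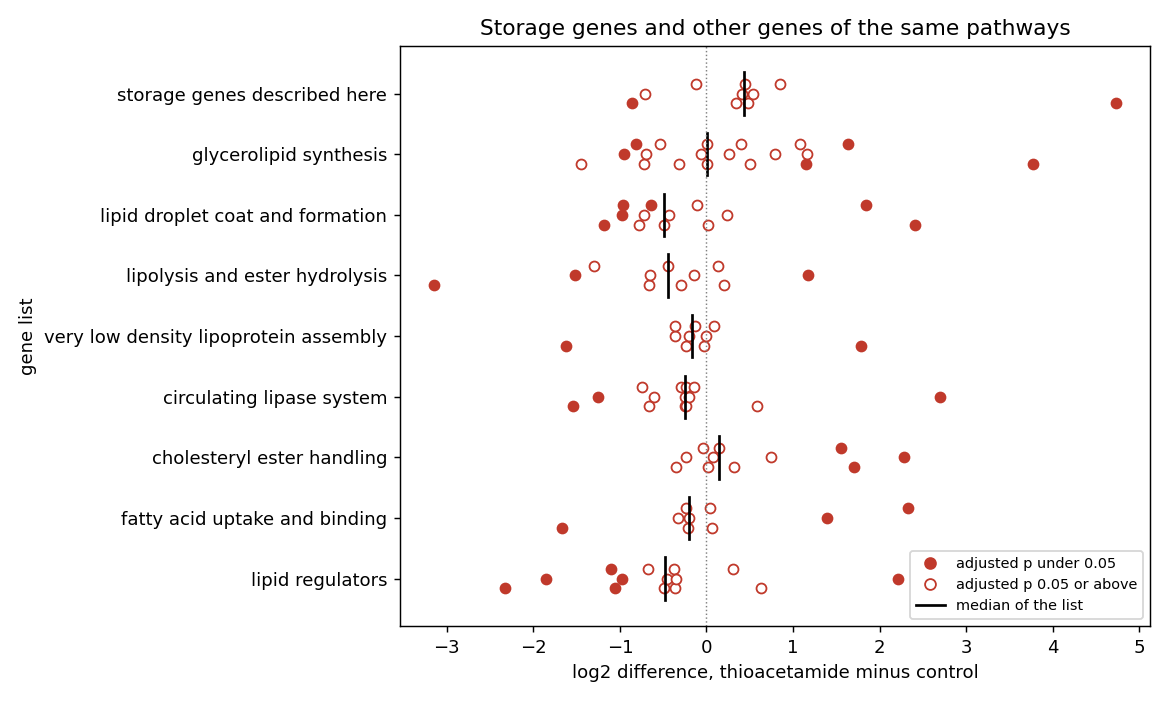
Log2 difference, thioacetamide minus control, of the 10 storage genes and of the measured genes of 8 lists of the same pathways (1 point per gene), filled where the adjusted p was under 0.05, with a black line at the median of each list. The medians lie between -0.49 and 0.43, and Soat1 at 4.74 is the highest point plotted, followed by Gpat3 at 3.77.

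Since Soat1 is also a gene of macrophages and other cells of the liver, markers of those cells are given beside it. Of 11 macrophage markers 4 fell and 0 rose by limma, 8 being lower and 0 higher by the unadjusted p. All were above background on all arrays, and their summed log2 level was 115.7 to 121.1 in thioacetamide livers and 123.6 to 132.5 in control livers. The falls were Cd14, Marco, Csf1r and Clec4f, and the count was 1 without thioacetamide replicate 2 and 2 without thioacetamide replicate 1, 3 or 4. Of 6 markers of lipid-laden macrophages Gpnmb (2.34 ± 0.20, SE, limma adjusted p = 9.38e-05) and Lpl rose and 0 fell by limma (1 by the unadjusted p), Spp1, Trem2, Cd9 and Fabp5 did not pass, and the summed level was 57.84 to 61.15 against 54.23 to 58.10 in controls.

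Of 6 bile duct and progenitor markers Cldn7, Cd24 and Epcam rose, and the summed level was 58.62 to 61.67 in thioacetamide livers and 46.01 to 54.60 in control livers. Of 6 stellate cell and myofibroblast markers Lrat and Des rose, a count that was 0 in the fits that left out control replicate 1 or a thioacetamide replicate other than 4, with summed levels of 59.99 to 62.87 against 57.38 to 60.34 in controls. Des was above background on 2 of 4 thioacetamide arrays and 0 control arrays (means 6.87 and 5.86), so its difference is one of values near background. Of 5 endothelial markers 0 passed in limma, with 2 lower and 0 higher by the unadjusted p, with summed levels of 50.39 to 53.79 and 52.11 to 53.89. Of 5 T and NK cell markers Gzma and Nkg7 fell (1 of them in the fits without control replicate 1, 2 or 3 or thioacetamide replicate 2, 3 or 4), with summed levels of 34.01 to 36.36 and 37.19 to 39.01, and Cd3e was under background on all arrays. The adipocyte markers Plin1 and Lep were under background on all 8 arrays. Adipoq was above it on the 4 thioacetamide arrays alone, where the background level itself was lower (6.54 to 6.95, against 6.95 to 7.94 on control arrays). Its level was 6.95 ± 0.19, against 6.44 ± 0.18 in controls (SD, n = 4 each, limma adjusted p = 0.104). Fabp4 rose and Cidec fell (Cidec not without thioacetamide replicate 2), and the adipocyte markers had summed levels of 42.25 to 43.07 and 40.17 to 42.66. The part of these cells in the rise of Soat1 was not tested.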

How the data were processed

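Liver RNA of 8 rats was measured on 8 arrays, and per the labels each is a separate animal. The deposited log2 values were made by the authors with RMA, per the submitters' processing notes. The sources used here give no version or settings for it, and no scanner or build. The series table and the sample files held the same log2 values (largest difference 0). One random control set was left out, and 11 probe sets without a value on control replicate 4 (0 of them of the 10 genes) were fitted on the other arrays. Symbols came from gene identifiers through a RefSeq GRCr8 table (20543 probe sets), from accessions (31) or from the files (5634).

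Groups were compared with limma 3.58.1 in R 4.3.3 (lmFit, eBayes, two-sided, no block). The fit was tested on simulated data. The genes, lists and tests were chosen with earlier results of these data known. Genes named from a list were the 3 changed most and the largest change of the opposite direction, plus counts of 5 or fewer. Alternatives changed the scaling (cyclic loess or median centring), dropped dim probe sets, used an intensity trend and robust variances, weighted arrays, blocked on replicate number, left out arrays, averaged a gene's probe sets, or replaced limma by an exact permutation test. Plin4, Hilpda, Nceh1, Angptl8 and Npc1 were listed but had no probe set by symbol. Some genes of the lists are counted but not reported here by name.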

Additional observations from a re-analysis of the deposited data

Results flagged for a closer look

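In 3 cases 1 rat lay far from the other 3 of its group by Dixon's test at 95%, among 72 groups of 4 examined, where chance gives about 1 in 20. Dgat2 was 12.62 in thioacetamide replicate 4, against 12.89 to 12.93 in the other treated livers. Mttp was 13.34 in the same rat, against 13.91 to 13.98. The second probe set of Pnpla2 was 13.25 in control replicate 2, against 12.80 to 12.86 in the other controls, and the first probe set had its highest control value there too (13.20).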

How the results depend on the processing

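Soat1 passed and kept its direction under every alternative tried. Over the 10 genes and all alternatives, 151 of 170 values kept their direction and side of the threshold, 16 passed where the result itself did not (those of the permutation test by an unadjusted p), 1 was lost and 2 changed sign (Gpam, at 0.16 and 0.08 when replicate 4 of the control or of the thioacetamide group was left out, and between -0.46 and 0.16 over all fits with arrays left out). The count of 2 genes changed (1 higher, 1 lower) was 6 (4 and 2) with the intensity trend and robust estimation, 4 (2 and 2) with the filter on dim probe sets, 4 (2 and 2) with array weights, 3 (1 and 2) with cyclic loess, 3 (1 and 2) without control replicates 2 and 3 and thioacetamide replicate 4, and 2 to 3 (1 to 2 higher, 1 to 2 lower) with 1 array left out. The cause was not tested. The exact permutation test gave an unadjusted two-sided p of 0.0286, the smallest that 70 regroupings allow, for Soat1, Soat2, Dgat2, Plin2, Pnpla2 and Lipc. Deviations of same-numbered rats from their group means had r of 0.25, -0.10, -0.13 and -0.43 across probe sets. Between rats of different number r reached 0.43. With 4 arrays per group these values cannot exclude a shared block, and the labels give replicate numbers without stating a pairing. With the replicate block 1 of the 10 genes passed (1 higher, 0 lower, Lipc at -0.86 with limma adjusted p = 0.0571), 23 pathway genes (12 higher, 11 lower) and 2163 probe sets (1475 higher, 688 lower), against 3827 (2480 and 1347) without it. With 1 array left out 2166 to 3924 probe sets passed (1447 to 2436 higher, 719 to 1488 lower) and 19 to 34 pathway genes (9 to 16 higher, 9 to 20 lower). With those 3 arrays left out 4139 probe sets passed, 1857 of them lower. Array weights gave 5185 probe sets (3103 higher, 2082 lower), and cyclic loess split the calls into 1998 higher and 1736 lower. With the filter on dim probe sets 4506 passed (2946 higher, 1560 lower), of a smaller number tested. Calls over all probe sets were thus more numerous too under the filter and array weights than the 3827 of the main fit. Signal over background limits Soat1, Gpat3 and Pparg to a bound. Controls were above background on 3 of 4 arrays for Plin3, Sort1 and Abcg8, and on 2 for Agpat1, Lpl and Cldn7. For Cd24 they were so on 1 and for Des on 0, and the differences of these genes rest in part on values under background.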
